A study of Mus musculus with 3 samples.

Results

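The 10 genes described here encode heat shock proteins and related chaperones: Hspa1a, Hspa1b, Dnajb1, Hsph1, Hspa8, Hsp90aa1, Hsp90ab1, Hspd1, Hspe1 and Hspa5. They were taken by gene symbol from the 32285 genes counted in each library, and all 10 were present. RNA and surface proteins had been measured together in single cells (CITE-seq) of newborn mouse liver, in cells that lacked lineage markers and carried the receptor KIT. The liver is still a blood-forming organ at postnatal day 0, and this sort enriches for blood progenitors. There were 3 groups with 1 library each: MLL::ENL mice with Skida1 deleted (Skida1-deleted), MLL::ENL mice (MLL-ENL) and Control mice. MLL::ENL is a leukemia-associated fusion of a chromatin regulator with an elongation factor, and both fusion groups carried it. The sources used here do not give the promoter or cells that drive the fusion, the deleted part of Skida1, the strain or the number of animals per library. No group carried the Skida1 deletion without the fusion.

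Chaperones help other proteins fold, keep them from aggregating and pass those beyond repair to degradation. The HSP70 and HSP90 families work in the cytosol with co-chaperones, the chaperonin of HSP60 and HSP10 folds proteins inside mitochondria, and a dedicated HSP70 works in the endoplasmic reticulum. Under heat or other proteotoxic stress the factor HSF1 binds heat shock elements and raises the inducible members, while the constitutive members are abundant in all growing cells. In the erythroid lineage, HSP70 is known to protect the transcription factor GATA1 during maturation.

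The promoters of 7 members were in the RefSeq table of GRCm38.p6, as windows of 300 bases that end 50 bases into the gene. No window was listed for Hspa8, Hsp90aa1 or Hsp90ab1. A pair of inverted heat shock units, GAANNTTC or TTCNNGAA, was searched on both strands, and so was the longer run of 3 units, a pair followed after 2 bases by another GAA or TTC in alternation, which contains 2 overlapping pairs. The pair occurred in 15.1% of all 32851 promoter windows and the run of 3 units in 0.603%. Hspd1 and Hspe1 are divergent neighbours on chromosome 1, and 1 of the 2 windows of Hspd1 shares 285 of 300 bases with that of Hspe1 on opposite strands. The other window, at the outermost start of Hspd1, shares 4 of 300 bases and holds no heat shock pair. The longer shared stretch holds 2 runs of 3 units that overlap each other, at -89 to -77 and -84 to -72 from the Hspe1 start, where 0 is the first base of the gene. It is shown in the Hspe1 direction because these 2 genes differed between the libraries in opposite directions in most cell classes below. Hspa1a and Hspa1b lie close together on chromosome 17, and 296 of the 300 bases of their windows (98.7%) are the same at the same position. One of them is shown because these classic inducible genes were almost undetected. Each holds 1 pair and no run of 3. Hsph1 holds 3 pairs, of which 2 overlap and form a run of 3. It is shown because its level differed most between cell classes. Capitals mark heat shock pairs in these sequences, written 5′ to 3′.
Hspe1, chr1:55087898-55088197, plus strand: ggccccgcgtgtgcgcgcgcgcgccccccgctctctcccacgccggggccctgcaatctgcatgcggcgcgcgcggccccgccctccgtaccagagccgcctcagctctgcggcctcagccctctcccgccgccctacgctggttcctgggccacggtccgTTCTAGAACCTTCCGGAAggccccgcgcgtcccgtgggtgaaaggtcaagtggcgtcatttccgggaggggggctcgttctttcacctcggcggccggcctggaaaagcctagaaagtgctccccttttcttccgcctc
Hspa1a, chr17:34972107-34972406, minus strand: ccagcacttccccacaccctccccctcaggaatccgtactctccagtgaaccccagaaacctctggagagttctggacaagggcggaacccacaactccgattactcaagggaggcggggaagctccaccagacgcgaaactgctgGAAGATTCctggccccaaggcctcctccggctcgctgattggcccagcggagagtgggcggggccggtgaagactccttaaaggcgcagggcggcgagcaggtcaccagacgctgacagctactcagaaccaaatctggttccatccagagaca
Hsph1, chr5:149636266-149636565, minus strand: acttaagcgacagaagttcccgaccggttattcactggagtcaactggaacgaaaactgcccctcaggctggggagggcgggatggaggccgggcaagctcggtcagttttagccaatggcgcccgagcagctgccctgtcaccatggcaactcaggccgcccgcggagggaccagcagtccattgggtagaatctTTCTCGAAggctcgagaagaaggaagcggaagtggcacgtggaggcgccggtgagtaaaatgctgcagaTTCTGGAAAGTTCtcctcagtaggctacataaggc

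The promoter of Hspa5 holds no heat shock pair. It holds 1 endoplasmic reticulum stress element, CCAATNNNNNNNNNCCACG, at -65 to -47 from the start, a motif found in 39 of the 32851 windows (0.119%). It also holds 4 copies of CCAAT, 1 of them inside that element, and CCAAT occurred in 37.4% of all windows. Capitals mark the stress element. Neither window of Dnajb1 holds a heat shock pair. A match of letters is a description of these windows and does not show that a factor binds there.
Hspa5, chr2:34771840-34772139, plus strand: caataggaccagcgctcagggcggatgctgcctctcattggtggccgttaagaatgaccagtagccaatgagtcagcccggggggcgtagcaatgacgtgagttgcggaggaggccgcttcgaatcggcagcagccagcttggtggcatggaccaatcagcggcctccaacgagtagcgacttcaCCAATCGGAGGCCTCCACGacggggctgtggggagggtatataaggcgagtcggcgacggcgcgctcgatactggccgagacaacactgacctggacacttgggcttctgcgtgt

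After filtering, 9344 Skida1-deleted, 10807 MLL-ENL and 5394 Control cells remained, with medians of 17246.5, 13918 and 28031.5 UMIs (unique molecular identifiers, 1 per captured RNA molecule) per cell. Cells were assigned to classes by marker genes, and each class is called "-like". The libraries shared 13 to 22 cell barcodes per pair. They largely formed separate clusters even within a class. Of the 1156 Control HSPC-like cells (stem and multipotent progenitor), 1146 were in 1 cluster that held 20 Skida1-deleted and 46 MLL-ENL cells. Granulocyte progenitor-like cells were mostly in a cluster led by Elane and Ccl9 in the fusion libraries (701 Skida1-deleted, 540 MLL-ENL and 5 Control cells). In Control they were mostly in one led by S100a9 and S100a8 (52, 43 and 335 cells in the same order). An unnamed cluster led by Car1 held 758 Skida1-deleted, 631 MLL-ENL and 7 Control cells. An erythroid-like cluster with a median of 4191 UMIs held 76 Skida1-deleted, 2963 MLL-ENL and 10 Control cells. Skida1 itself had 1.98 CPM (UMIs per 1000000 gene UMIs of the class) in Skida1-deleted HSPC-like cells, 18.4 in MLL-ENL and 0.948 in Control. Over all kept cells the Y-linked gene Ddx3y had 57.2 CPM in Skida1-deleted and 0 UMIs in MLL-ENL and in Control. Xist, which coats the silenced X chromosome of females, was at 2.11 CPM in Skida1-deleted, 1041 in MLL-ENL and 642 in Control. With 1 library per group, genotype, sex of the mice and preparation cannot be told apart, and no difference below has a replicate check. Intervals are 95% and cover counting error only.

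Hspa1a and Hspa1b encode the strongly stress-induced HSP70. Hspa1a had 21 UMIs in all kept Skida1-deleted cells, 3 in MLL-ENL and 10 in Control, and Hspa1b had 23, 18 and 8. A UMI of either gene was seen in 27 of 9344 Skida1-deleted cells, 18 of 10807 MLL-ENL cells and 18 of 5394 Control cells. No class of any library passed 0.434 CPM for Hspa1a, and the highest for Hspa1b was 0.378 CPM. Both genes were thus at the limit of detection everywhere, and no fold is given for them. The 2 genes are nearly identical, the sources used here do not say how reads matching both were counted, and the part of this in their low counts was not tested. No cell class here is known to lack them, so a background share could not be set.

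Dnajb1 encodes an HSP40 that stimulates HSP70 and is itself stress-induced. In HSPC-like cells it had 45.8 CPM in Skida1-deleted (interval 42.8 to 48.9), 48.6 CPM in MLL-ENL (interval 45.3 to 52.2) and 45.3 CPM in Control (interval 42.4 to 48.5). The 3 intervals overlap. Across the other compared classes it stayed between 35.9 CPM (Skida1-deleted basophil-mast-like cells) and 58.4 CPM (Control erythroid-like cells). In erythroid-like cells it had 46.0 CPM in Skida1-deleted, 45.2 in MLL-ENL and 58.4 in Control, and the Control level was the highest. The log2 ratio of (CPM + 1) was -0.36 for MLL-ENL over Control there, and 0.03 for Skida1-deleted over MLL-ENL.

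Hsph1 encodes HSP110, which recharges HSP70 with nucleotide and helps it to dissolve aggregates. It had the steepest lineage pattern of the measured members. In erythroid-like cells it had 124 CPM in Skida1-deleted (interval 122 to 126), 100.3 CPM in MLL-ENL (interval 98.7 to 102) and 73.8 CPM in Control (interval 72.3 to 75.3), so the 3 libraries stood apart in that order. In HSPC-like cells it had 20.7 CPM in Skida1-deleted (interval 18.7 to 22.8), 17.9 CPM in MLL-ENL (interval 15.9 to 20.1) and 24.5 CPM in Control (interval 22.4 to 26.9), where the Control and MLL-ENL intervals lay apart and the Skida1-deleted interval overlapped both. Of the 5 classes compared, the highest lay 6.29-fold above the lowest in Skida1-deleted and 5.99-fold in MLL-ENL. In Control, where megakaryocyte-like cells were too few to compare, it lay 3.82-fold above. Among the classes compared, erythroid-like cells were highest and basophil-mast-like cells lowest each time. MLL-ENL over Control, Hsph1 was 1.36-fold (interval 1.32 to 1.40) higher in erythroid-like cells (log2 0.44). In HSPC-like cells it was 1.37-fold (interval 1.18 to 1.59) lower (log2 -0.43), and in granulocyte progenitor-like cells 1.53-fold (interval 1.27 to 1.84) lower (log2 -0.59). The last value passed 1.5-fold narrowly and lost that under most alternatives, with -0.03 under stricter cell filters, -0.10 at clustering resolution 1.5 and -0.12 when each cell was classed by its own marker score. Skida1-deleted over MLL-ENL, the level was 1.24-fold (interval 1.21 to 1.27) higher in erythroid-like and 1.54-fold (interval 1.33 to 1.78) higher in megakaryocyte-like cells. The megakaryocyte-like log2 ratio of 0.60 was 0.38 under stricter filters, 0.51 at resolution 0.5 and 0.33 with a marker score per cell, all short of 1.5-fold. The levels behind it were 41.7 CPM in Skida1-deleted and 27.1 CPM in MLL-ENL.

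**Figure D1:**
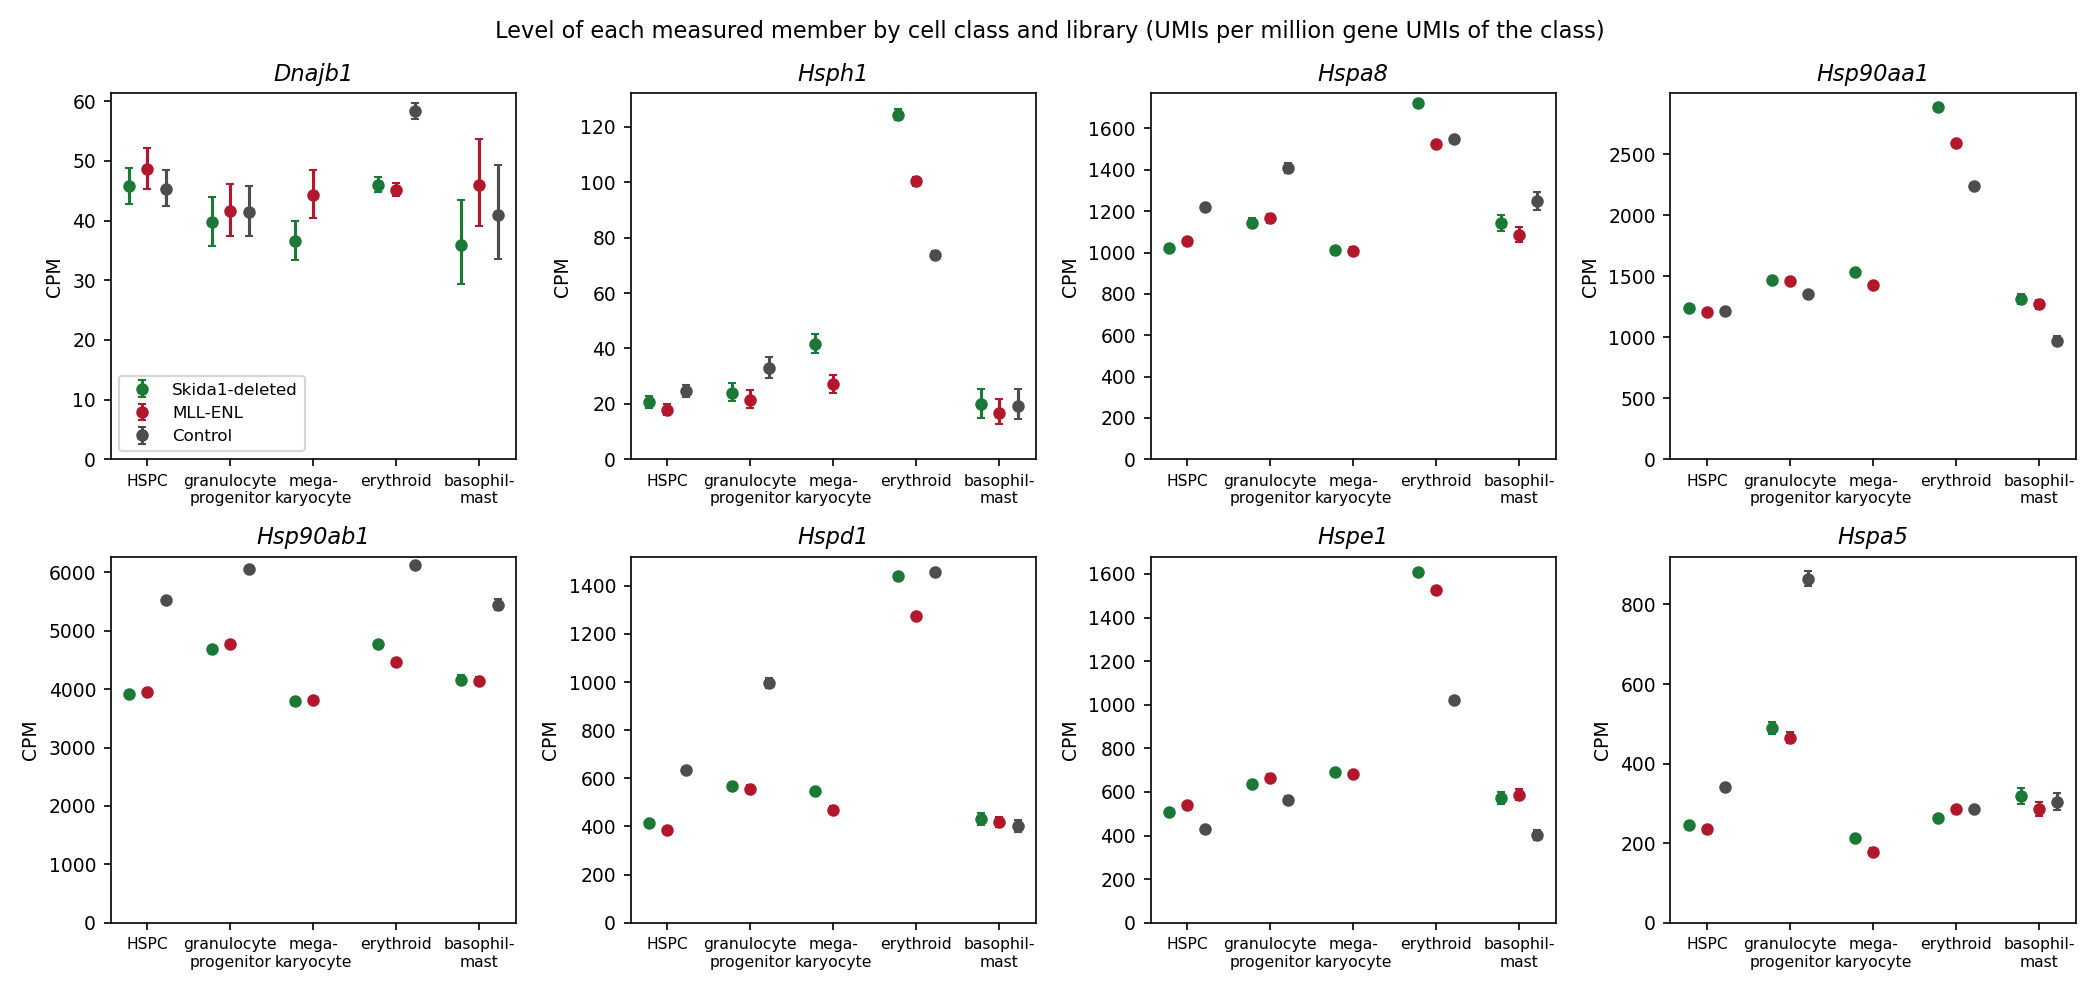
Level in CPM (linear axes from 0) of the 8 measured members in 5 cell classes, with Skida1-deleted, MLL-ENL and Control from left to right in each class and bars for 95% Poisson intervals. The 90 Control megakaryocyte-like cells are left out. Hsph1 reached 124 CPM in Skida1-deleted erythroid-like cells and was at most 41.7 CPM in each other class drawn, while the Hsp90ab1 level of Control was above both fusion libraries in every class drawn with all 3.

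Among the constitutive cytosolic genes, Hspa8 encodes HSC70, the housekeeping HSP70. In HSPC-like cells it had 1022 CPM in Skida1-deleted (interval 1008 to 1037), 1056 CPM in MLL-ENL (interval 1041 to 1072) and 1218 CPM in Control (interval 1202 to 1234). Control was above both fusion libraries, which lay close together. In erythroid-like cells it had 1725 CPM in Skida1-deleted, 1525 in MLL-ENL and 1548 in Control, with Skida1-deleted highest. The log2 ratio of MLL-ENL over Control was -0.20 in HSPC-like, -0.27 in granulocyte progenitor-like, -0.20 in basophil-mast-like and -0.02 in erythroid-like cells.

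Hsp90aa1 and Hsp90ab1 encode the inducible and the constitutive cytosolic HSP90, which stabilize kinases and hormone receptors. In HSPC-like cells Hsp90ab1 had 3923 CPM in Skida1-deleted, 3953 in MLL-ENL and 5526 in Control. In erythroid-like cells it had 4776 CPM in Skida1-deleted, 4468 in MLL-ENL and 6130.0 in Control. The Control library stood above both fusion libraries in all 4 classes compared. MLL-ENL over Control, the log2 ratio was -0.48 in HSPC-like, -0.35 in granulocyte progenitor-like, -0.46 in erythroid-like and -0.40 in basophil-mast-like cells. It stayed below 0 under every alternative processing run in these 4 classes, within -0.54 to -0.37 for HSPC-like cells. The HSPC-like cells called G2M by their cell cycle genes, which were not among these runs, gave -0.35. Hsp90aa1 did not share this pattern. In HSPC-like cells it had 1241 CPM in Skida1-deleted, 1205 in MLL-ENL and 1212 in Control. In erythroid-like cells it had 2889.7 CPM in Skida1-deleted, 2590.2 in MLL-ENL and 2237 in Control, where MLL-ENL was above Control. Its log2 ratio of MLL-ENL over Control was -0.01 in HSPC-like, 0.11 in granulocyte progenitor-like, 0.21 in erythroid-like and 0.38 in basophil-mast-like cells.

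Counts of 2 genes within the same cells give a ratio that the scaling cannot move. In HSPC-like cells the Hsp90aa1 UMIs per Hsp90ab1 UMI were 0.316 in Skida1-deleted, 0.305 in MLL-ENL and 0.219 in Control. In erythroid-like cells they were 0.605 in Skida1-deleted, 0.580 in MLL-ENL and 0.365 in Control. In all 5 classes, including the 90 Control megakaryocyte-like cells, both fusion libraries lay above Control with intervals apart. Since capture can differ between genes, these ratios compare libraries and are not ratios of molecules in the cell.

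The mitochondrial pair was split between the libraries. Hspd1 encodes HSP60, the barrel of the mitochondrial chaperonin, and Hspe1 encodes HSP10, its lid. In HSPC-like cells Hspd1 had 416 CPM in Skida1-deleted (interval 407 to 425), 385 CPM in MLL-ENL (interval 375 to 394) and 633 CPM in Control (interval 622 to 644), so Control was the highest and MLL-ENL the lowest. Hspe1 had 508 CPM in Skida1-deleted (interval 498 to 518), 538 CPM in MLL-ENL (interval 527 to 549.8) and 429 CPM in Control (interval 420.1 to 439) in the same cells, so there Control was the lowest. MLL-ENL over Control, Hspd1 was 1.64-fold (interval 1.60 to 1.70) lower (log2 -0.72) and Hspe1 was 1.25-fold (interval 1.22 to 1.29) higher (log2 0.33). The 2 genes also differed in opposite directions in granulocyte progenitor-like cells, at -0.84 for Hspd1 and 0.23 for Hspe1, and in erythroid-like cells, at -0.19 and 0.58. In basophil-mast-like cells Hspd1 was at 0.06, with a fold interval that includes 1, and Hspe1 at 0.55. Hspe1 stayed above 0 in these 4 classes under every alternative run, and Hspd1 stayed below 0 in the first 3. In HSPC-like cells Hspd1 fell short of 1.5-fold at clustering resolution 1.5 (-0.52). It also did so in the HSPC-like cells called S (-0.52) or G2M (-0.45) by their cell cycle genes. In granulocyte progenitor-like cells it fell short with a marker score per cell (-0.54). In erythroid-like cells Hspe1 lay just short of 1.5-fold and passed it with TMM scaling (0.69).

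In HSPC-like cells the Hspe1 UMIs per Hspd1 UMI were 1.22 in Skida1-deleted, 1.40 in MLL-ENL and 0.679 in Control. In granulocyte progenitor-like cells they were 1.12 in Skida1-deleted, 1.20 in MLL-ENL and 0.567 in Control, and in erythroid-like cells 1.12 in Skida1-deleted, 1.20 in MLL-ENL and 0.699 in Control. Both fusion libraries held more Hspe1 than Hspd1 UMIs in all 5 classes. The Control library held fewer in 4 of them, and about as many in basophil-mast-like cells, where the interval of the ratio ran from 0.920 to 1.09. Within the fusion libraries the ratio was lower in Skida1-deleted than in MLL-ENL in each of the 5 classes, with intervals apart in HSPC-like, megakaryocyte-like and erythroid-like cells.

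**Figure D2:**
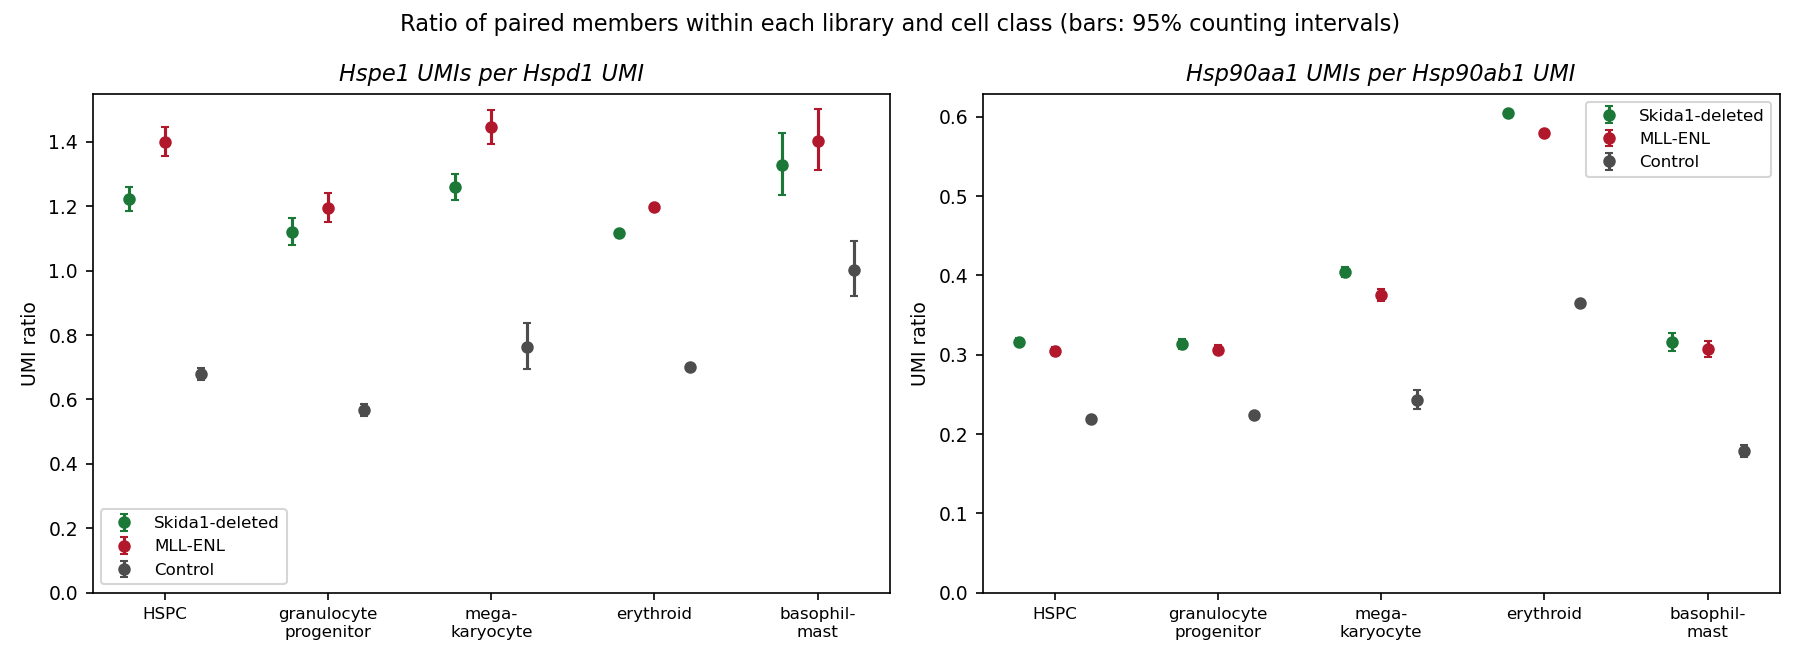
Ratio of UMIs of 2 members within each library and cell class (linear axes from 0; Skida1-deleted, MLL-ENL and Control from left to right; bars are 95% exact binomial intervals). Both the Hspe1 to Hspd1 and the Hsp90aa1 to Hsp90ab1 ratio lay above Control in both fusion libraries in all 5 classes, as in HSPC-like cells with 1.22, 1.40 and 0.679 for the first.

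Hspa5 encodes BiP, the HSP70 of the endoplasmic reticulum and a target of the unfolded protein response. It was highest in granulocyte progenitor-like cells of each library, with 489.6 CPM in Skida1-deleted (interval 475 to 504), 465 CPM in MLL-ENL (interval 451 to 479.6) and 865 CPM in Control (interval 846 to 884). Control stood well above the fusion libraries there, and 1.86-fold (interval 1.79 to 1.93) lower in MLL-ENL than in Control was the largest difference of any member in this class (log2 -0.89). The fusion and Control cells of this class came mostly from the different clusters named above, and the part of that in this value was not tested. It also rested on how the class was drawn. The log2 ratio was -0.19 at clustering resolution 1.5, -0.50 at 0.5, -0.32 without doublet removal, -0.32 with chaperone genes kept in the clustering and -0.52 under stricter cell filters, each short of 1.5-fold, and -1.02 with cells weighted equally. In HSPC-like cells Hspa5 had 245 CPM in Skida1-deleted, 235 in MLL-ENL and 341 in Control (log2 -0.54 for MLL-ENL over Control, and -0.95 under stricter filters). In erythroid-like cells it had 264 CPM in Skida1-deleted, 285 in MLL-ENL and 287 in Control, where MLL-ENL and Control overlapped.

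Counted together, 8 of the 10 members reached 5 CPM or more in at least 1 of the 2 libraries compared and are called measured. MLL-ENL over Control in HSPC-like cells, 1 of the 8 (Hspd1) was at least 1.5-fold lower and 0 were higher, with a median log2 ratio of -0.32, against -0.09 over all 9879 genes measured. Of all those genes 13.2% were at least 1.5-fold lower and 21.4% past that fold in either direction, so the members' count is near the background. In granulocyte progenitor-like cells 3 of 8 were lower (Hspa5, Hspd1 and Hsph1), where 19.2% of all genes were lower and 29.8% past the fold. The make-up of this class differed strongly between the libraries. By their cell cycle genes, 40.9% of its Skida1-deleted, 36.4% of its MLL-ENL and 3.53% of its Control cells were called G1. Its median UMIs per cell were 12048, 13943 and 26220, and its ribosomal protein share 35.1%, 33.6% and 25.8%, in the same order. The part of these in the differences of this class was not tested. In erythroid-like cells none of the 8 passed 1.5-fold, against 15.6% of genes, and the median was -0.01 against -0.14. None passed in basophil-mast-like cells, against 25%, or over all kept cells, against 15%.

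Skida1-deleted over MLL-ENL, the members differed little. In HSPC-like cells their log2 ratios lay between -0.09 (Dnajb1) and 0.19 (Hsph1), with a median of 0.02, none past 1.5-fold, and 2.6% of all genes past it. In granulocyte progenitor-like cells none passed (background 3.68%). In erythroid-like cells 7 of the 8 were above 0, with a median of 0.13, where 59.8% of all 8276 genes were below 0 with a median of -0.04. Hspa5 was at -0.11. None of them passed 1.5-fold there (background 1.86%). Hsph1 in megakaryocyte-like cells (log2 0.60) was the single member past the fold, in a class where 1.78% of genes were higher and 2.96% past the fold in either direction. None passed in basophil-mast-like cells (background 9.55%) or over all kept cells (background 1.48%). The 2 comparisons share the MLL-ENL library, so an error in it would move both.

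**Figure D3:**
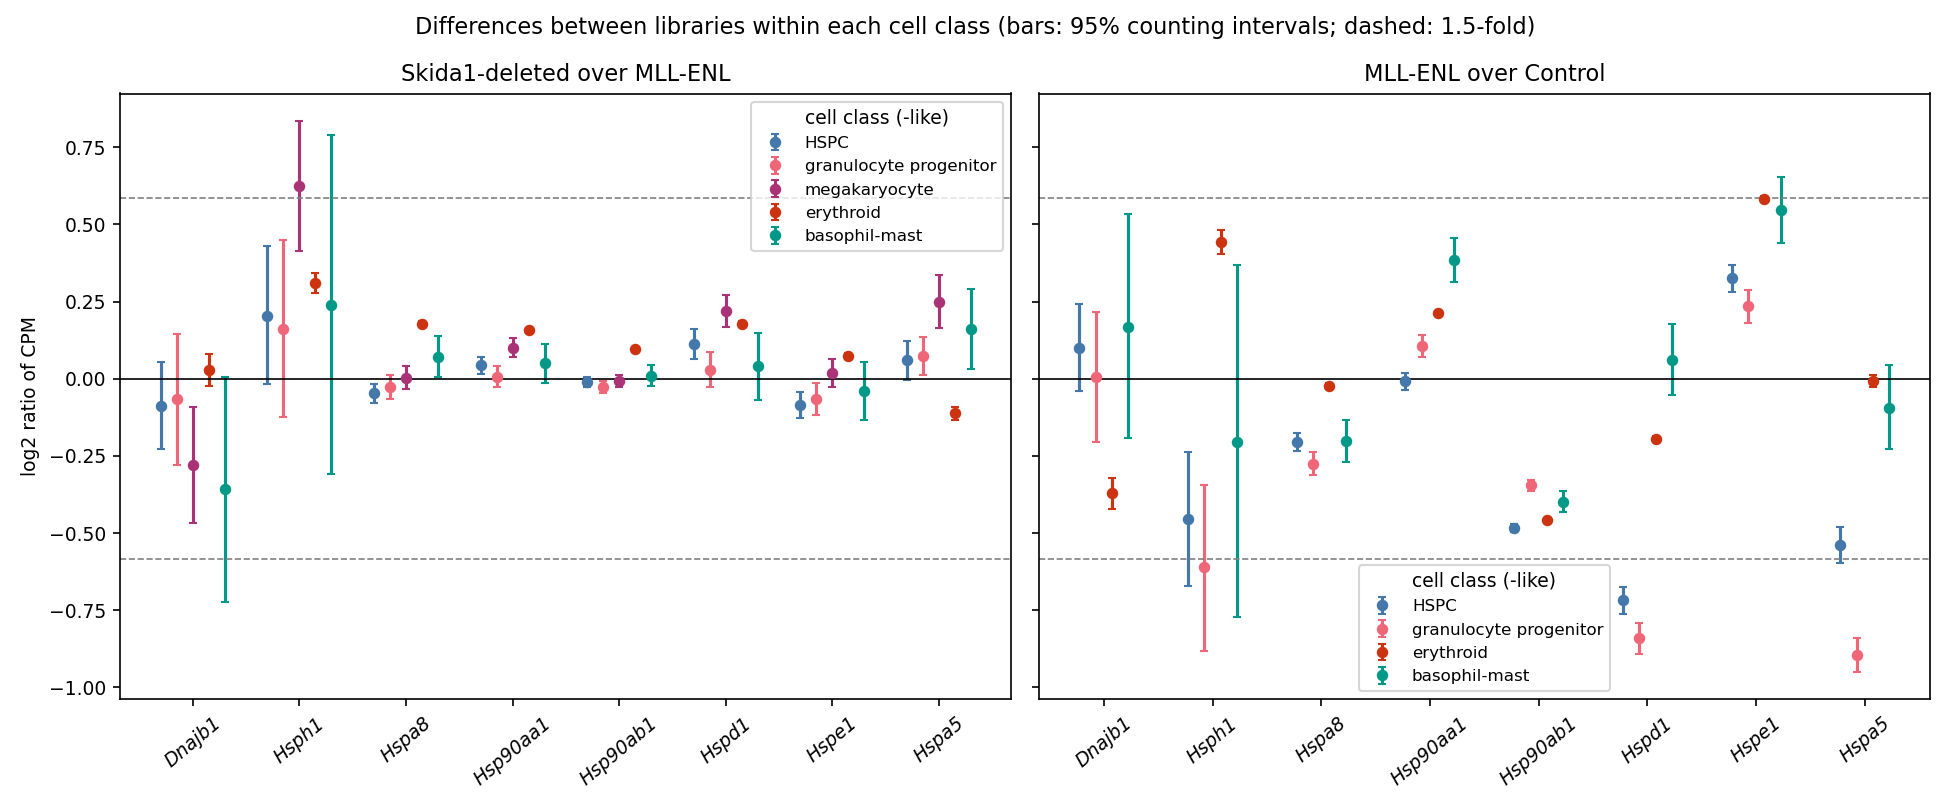
Log2 ratio of CPM of the 8 measured members for Skida1-deleted over MLL-ENL (left) and MLL-ENL over Control (right), with 1 point per cell class, 95% counting intervals and dashed lines at 1.5-fold. On the right Hsp90ab1 lies below 0 and Hspe1 above 0 in all 4 classes, and Hspd1, Hspa5 and, narrowly, Hsph1 pass the lower line in granulocyte progenitor-like cells. On the left the points lie closer to 0.

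Other properties of the libraries moved with these differences. HSPC-like cells had a median of 8283 UMIs in Skida1-deleted, 9003.5 in MLL-ENL and 15004.5 in Control. Ribosomal protein genes took 32.2%, 31.3% and 27.2% of their UMIs, and 53.4%, 59.5% and 31.5% of the cells were called G1 by their cell cycle genes. The part of the ribosomal share and of the immediate early genes in the results was not tested. The 16 immediate early genes, which can be induced when tissue is dissociated, summed to 409, 443 and 474 CPM. With every cell thinned to 3000 UMIs, the log2 ratio of Hspd1 for MLL-ENL over Control was -0.80, that of Hspe1 0.20 and that of Hsp90ab1 -0.54. TMM scaling moved every HSPC-like ratio of MLL-ENL over Control by 0.05 and every erythroid-like one by 0.11, and the erythroid-like directions given above for Hsph1, Dnajb1, Hsp90aa1, Hsp90ab1, Hspd1 and Hspe1 held. Without the clusters under 5000 median UMIs, a choice made after seeing the data, the erythroid-like ratio was 0.60 for Hspe1, 0.47 for Hsph1 and -0.44 for Hsp90ab1.

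Within HSPC-like cells the levels also differed by cell cycle phase, in all 3 libraries. Hspd1 in G1 cells had 279.7 CPM in Skida1-deleted, 244 in MLL-ENL and 409.5 in Control. In S cells it had 582 CPM in Skida1-deleted, 573 in MLL-ENL and 821 in Control, and in G2M cells 433 CPM in Skida1-deleted, 409 in MLL-ENL and 559.7 in Control. It was thus lowest in G1 and highest in S in each library, and Control was above both fusion libraries in every phase. Its log2 ratio of MLL-ENL over Control was -0.75 in G1, -0.52 in S and -0.45 in G2M. Hsp90ab1 was at -0.51, -0.45 and -0.35 in the same phases, Hspe1 at 0.26, 0.44 and 0.50, and Hspa5 at -0.32, -0.53 and -0.31. Each of these 4 genes kept its direction within every phase. Of the other measured members, Hspa8 was at -0.23, -0.16 and 0.003 in G1, S and G2M. Hsph1 was at -0.46, -0.06 and -0.36, and its fold interval in S ran from 0.754 to 1.21. Dnajb1 was at -0.09, 0.08 and 0.21, and Hsp90aa1 at -0.04, 0.05 and 0.29. The median of the measured members was -0.28, -0.11 and -0.16.
Hsp90aa1 followed the phases as well, and in MLL-ENL it had 859 CPM in G1, 1555 in S and 1343 in G2M. Dnajb1 in the same cells had 49.7, 49.5 and 46.9 CPM, with overlapping intervals.

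**Figure D4:**
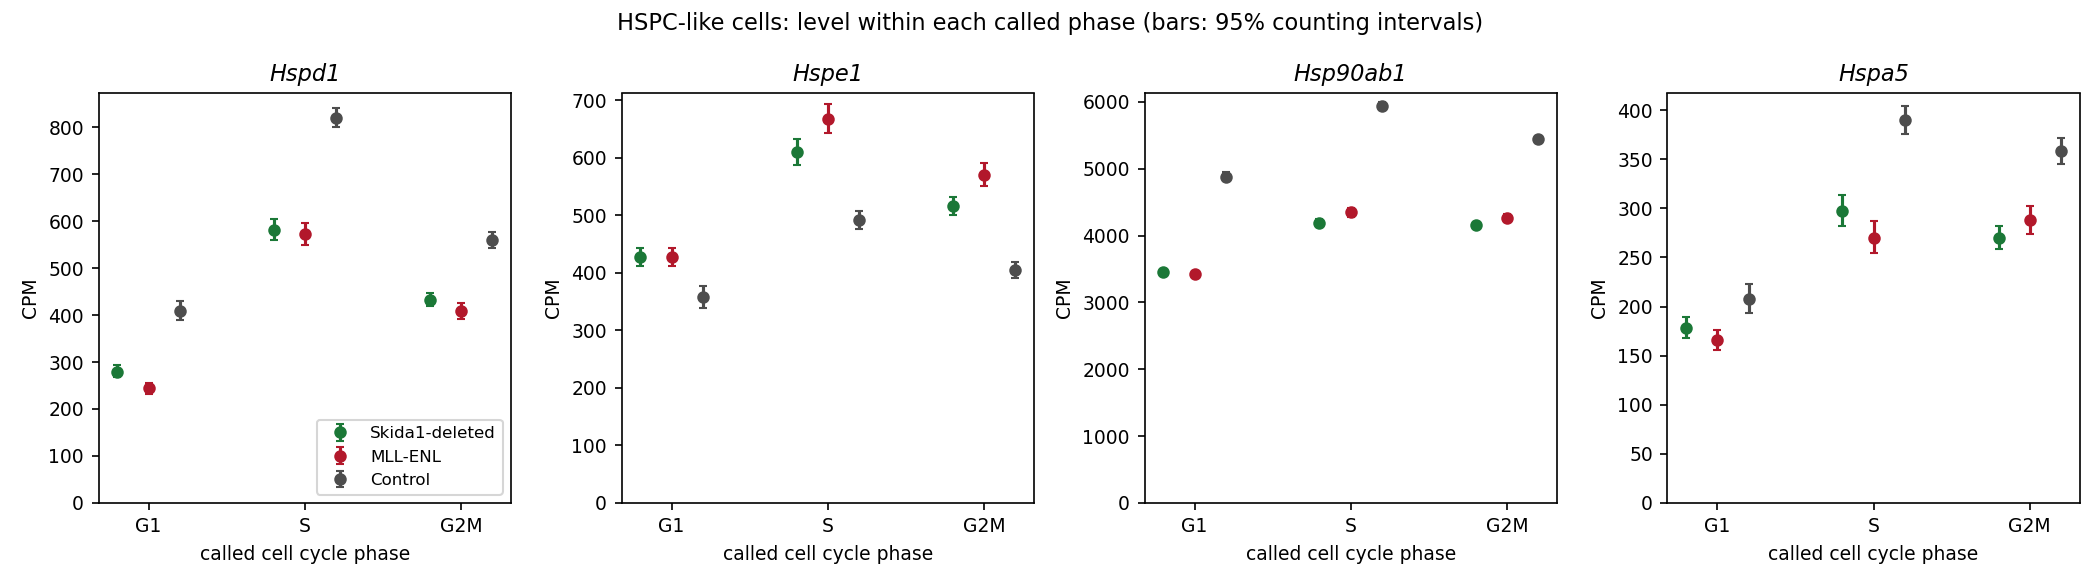
Level in CPM (linear axes from 0) of 4 members in HSPC-like cells called G1, S or G2M, with Skida1-deleted, MLL-ENL and Control from left to right and bars for 95% Poisson intervals. Control was above the fusion libraries for Hspd1, Hsp90ab1 and Hspa5 and below them for Hspe1 in each phase, as for Hspd1 in G1 with 279.7, 244 and 409.5 CPM.

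Erythroid-like cells were the class with the most members at their highest level. Hsph1, Hspa8, Hsp90aa1, Hspd1 and Hspe1 were higher there than in each other compared class, in all 3 libraries. Depth and cell cycle differed between classes too. In erythroid-like cells of Skida1-deleted, MLL-ENL and Control, 1.01%, 1.37% and 4.35% were called G1, with medians of 27552, 21424.5 and 34267 UMIs. The part of this in the class differences was not tested. Within the erythroid-like class, cells of at least 3000 UMIs were ordered by the share of erythroid marker UMIs and cut into 4 bins of equal size per library. Hsph1 in Skida1-deleted had 99.1, 123, 135 and 136 CPM from bin 1 (lowest share) to bin 4. In MLL-ENL it had 74.3, 98.4, 109 and 114 CPM, and in Control 47.5, 77.7, 84.4 and 74.3 CPM. The level thus climbed from bin 1 to bin 3 in each library, and in Control alone was it lower in bin 4 than in bin 3. Dnajb1 climbed through all 4 bins in each library, to 54.1 CPM in Skida1-deleted, 55.5 in MLL-ENL and 73.8 in Control, against 39.3, 37.5 and 44.4 in bin 1 of the same libraries. Hsp90aa1 climbed too, with 3043 CPM in bin 4 of Skida1-deleted against 2608 in bin 1, 2755 against 2334 in MLL-ENL, and 2467 against 1525 in Control.
Hsp90ab1 ended the other way. Bin 4 was the lowest in each library, at 4468 CPM in Skida1-deleted, 4186 in MLL-ENL and 5541 in Control. Only in MLL-ENL did it fall through all 4 bins. From bin 1 to bin 2 it rose in Control, from 6316 to 6590 CPM with intervals apart. In Skida1-deleted these bins had 4904 and 4938 CPM, with overlapping intervals. The bins were cut within each library, so a bin does not mark the same marker share in all 3. Depth and cell cycle moved with the bins. The median UMIs per cell from bin 1 to bin 4 were 24528, 29246, 29673 and 28483 in Skida1-deleted, 20151, 22132, 26178 and 29129 in MLL-ENL and 21312, 36129, 39681 and 36868.5 in Control. The share of cells called S was 37.4%, 31.7%, 28.4% and 27.2% in Skida1-deleted, 29.7%, 27.2%, 24.3% and 23.4% in MLL-ENL and 31.4%, 35.4%, 34.5% and 37.1% in Control. Their part in the levels was not tested. Bin 1 of Control had the lowest Hsph1, Hsp90aa1, Hspd1 and Hspe1 levels of any bin.

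**Figure D5:**
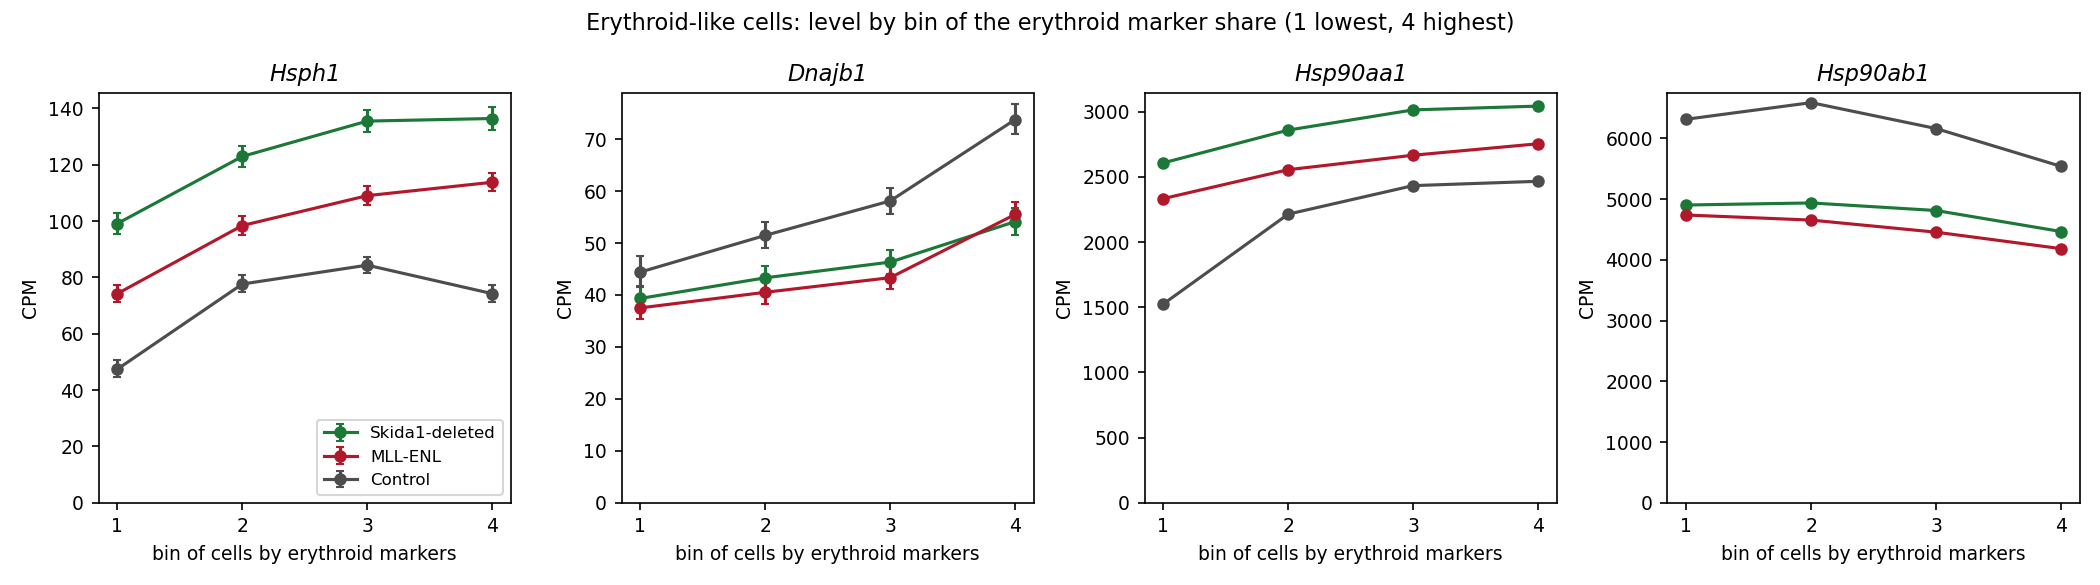
Level in CPM (linear axes from 0) of 4 members in erythroid-like cells, by bin of the erythroid marker share within each library (1 lowest, 4 highest), with bars for 95% Poisson intervals and 1 line per library. Hsph1, Dnajb1 and Hsp90aa1 were higher in bin 4 than in bin 1 in every library, and Hsp90ab1 was lower.

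The other chaperone and stress genes were described by lists in HSPC-like cells, MLL-ENL over Control. All measured genes had a median of -0.09 there, and 57.3% of them lay below 0. Of the same genes 13.2% were at least 1.5-fold lower and 8.22% at least 1.5-fold higher, the background for the counts below. Of 24 measured HSP70 and HSP90 partners 2 were lower past the fold and 0 higher, with a median of -0.30. Values in brackets give MLL-ENL against Control CPM and the log2 ratio. Chordc1, an HSP90 co-chaperone (37.9 against 61.3 CPM, -0.68), and Dnaja1, an HSP40 (277 against 431 CPM, -0.63), had the lowest log2 ratios. St13, an HSP70 co-chaperone, had the highest (208 against 149 CPM, 0.47). It was also the list's highest for Skida1-deleted over MLL-ENL, with a log2 ratio of 0.70. Its level therefore stepped in one direction over the 3 libraries, with 338 CPM in Skida1-deleted, 208 in MLL-ENL and 149 in Control.
Of 14 genes of the cytosolic chaperonin TRiC and its helper prefoldin, 12 lay below 0 and 0 passed the fold, with a median of -0.29. The chaperonin subunits Cct8 (259 against 387 CPM, -0.58) and Cct4 (237 against 349.8 CPM, -0.56) were lowest, and the prefoldin subunits Pfdn2 (138 against 128 CPM, 0.10) and Pfdn5 (446 against 422 CPM, 0.08) highest. Of 13 other mitochondrial chaperones and proteases, 12 lay below 0 and 2 passed the fold, with a median of -0.24. Dnaja3 (14.3 against 23.3 CPM, -0.67) and Clpx (29.0 against 44.9 CPM, -0.62) were lowest, and Dnajc19 (94.3 against 65.0 CPM, 0.53) was the list's single gene above 0.
Of 17 endoplasmic reticulum chaperones, 7 lay above 0 and 10 below, 1 of them past the fold, with a median of -0.18. Creld2 (16.3 against 25.1 CPM, -0.59) and Dnajb11 (50.2 against 67.8 CPM, -0.43), a BiP partner, were lowest, and Sil1 (22.3 against 15.4 CPM, 0.51), the nucleotide exchange factor of BiP, highest. Among 9 measured regulators of the unfolded protein and integrated stress responses the median was 0.08, with Ddit3 highest (20.9 against 13.1 CPM, 0.64) and Atf5 lowest (log2 -0.88). Of the heat shock factors, Hsf1 itself (22.9 against 21.6 CPM, 0.08) and Hsf2 (8.90 against 10.1 CPM, -0.17) stayed within the fold, and Hsbp1 (134 against 88.0 CPM, 0.60), which encodes an HSF1-binding protein, was higher past it. Of 13 measured immediate early genes 1 was higher past the fold (Egr1, 13.4 against 3.37 CPM, 1.72) and 1 lower (Fos, 4.05 against 9.85 CPM, -1.10).
In erythroid-like cells the same comparison gave medians of 0.01 for the partners, -0.14 for TRiC and prefoldin, -0.28 for the mitochondrial list and 0.02 for the endoplasmic reticulum list, against -0.14 over all genes. Skida1-deleted over MLL-ENL in HSPC-like cells, the list medians lay between -0.14 and 0.05, and St13 was the single gene past 1.5-fold among the partners.

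Genes with levels most like each member were sought over 15 pairs of library and class with at least 100 cells, among 4206 genes. These points share libraries and depth, and the correlations are descriptions. Hspd1 was most like C1qbp (Pearson r = 0.991), which encodes a mitochondrial matrix protein, then Cct6a (0.985) and Timm8a1 (0.982). Hspe1 and Hsp90aa1 were most like each other (0.980), Hsph1 most like Ddx27 (0.974), Hsp90ab1 most like Alg5 (0.972) and Hspa8 most like Ppid (0.958), an HSP90 co-chaperone. Hspa5 was most like Manf (0.959), then Erp29 (0.938) and Spcs2 (0.906), which encode proteins of the endoplasmic reticulum. Dnajb1 had no gene above 0.828 (Slc25a51).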

How the data were processed

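The authors deposited, for each of 3 libraries, a matrix of raw UMI counts per gene and cell barcode, with no normalization. The 10x Genomics 3' v3.1 kit named in the labels' protocols counts 1 tag near the 3' end of each captured molecule. Cell Ranger is given as 6.1.2 per the file headers and as 6.0.1, with mm10, per the submitters' processing notes. Totals were 207395090 gene UMIs in Skida1-deleted, 198773992 in MLL-ENL and 180656900 in Control.

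Cells with at least 1000 UMIs, 500 genes and under 10% mitochondrial UMIs were kept, and 618, 341 and 383 Scrublet doublets were removed. The libraries were clustered together (scanpy 1.11.5, Leiden, resolution 1.0, 30 components of 2000 variable genes) without mitochondrial, ribosomal protein, sex-linked and chaperone genes. Clusters were named from marker lists. A first naming rule left early erythroid clusters of the fusion libraries unnamed, and once this had been seen another took its place. It needs at least 3 markers of a class among a cluster's top 50 genes, and at least 3 past 1.5-fold over the other classes. UMIs were summed per class and library and scaled to CPM. Differences are log2 ratios of (CPM + 1), and folds are ratios of CPM. Classes needed 100 cells in both libraries. The code was tested on simulated data.

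Each group has 1 library, so differences between groups carry no test and no p-value. Intervals are exact Poisson for CPM and exact conditional binomial for folds. Over the other lists, the 2 highest and 2 lowest measured genes per comparison in HSPC-like cells could be named. For likeness, the 3 genes of at least 30 CPM with the highest correlation were taken. Members and lists were chosen with earlier results of these data known. Alternatives covered cell filters, doublets, resolution, scaling with edgeR 4.0.16, depth, phase (G1 cells only) and low values.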

Additional observations from a re-analysis of the deposited data

Results flagged for a closer look

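In 3 cases a member differed in opposite directions in erythroid-like and HSPC-like cells, with both counting intervals clear of no change. The difference between the classes was not tested, since each group has 1 library. For Hsph1, MLL-ENL over Control, the log2 ratio was 0.44 in erythroid-like and -0.43 in HSPC-like cells, a gap of 0.87. For Hspa8, Skida1-deleted over MLL-ENL, it was 0.18 and -0.05, a gap of 0.23. For Hspe1 in the same comparison it was 0.08 and -0.08, a gap of 0.16. Under the alternatives the HSPC-like ratio ran from -0.13 to 0.02 for Hspa8 and from -0.18 to 0.0006 for Hspe1. It was below 0 in 15 of 16 for each. TMM scaling raised every HSPC-like ratio of this comparison by 0.04, less than the distance of either ratio from 0. For Hspe1 the value of 0.0006 was that of the cells called G1. The HSPC-like ratios of these 2 genes were thus close to 0, and neither kept its sign under every alternative. Both ratios of Hsph1 kept their sign under every alternative.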

How the results depend on the processing

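No paired analysis was possible because each group has 1 library, and for the same reason no replicate could be left out. Of the main counts and medians, those below moved by more than their counting spread (or by over 1.5 times for a count) and the signs of 2 medians near 0 changed. MLL-ENL over Control in HSPC-like cells, the median of -0.32 was -0.39 under stricter cell filters, -0.41 with each cell weighted equally, -0.42 with cells thinned to 3000 UMIs, -0.20 with no minimum CPM and -0.20 with Hspa1a and Hspa1b summed. The count of members at least 1.5-fold lower, 1 in the report, was 2 under stricter filters, 2 at resolution 0.5, 2 with granulocyte progenitor-like cells joined, 3 with thinning and 0 at resolution 1.5. Hspd1 itself ranged from -0.82 to -0.52 and passed the fold in 15 of 16 alternatives. These included the cells called G1 but not those called S or G2M. In S cells it was at -0.52 and in G2M cells at -0.45, each short of 1.5-fold. In erythroid-like cells the median of -0.01 was -0.0860 under stricter filters, -0.0374 at resolution 0.5, -0.0452 at resolution 1.5, 0.0651 when scaled to other genes, 0.0924 with TMM and 0.13 when centred on the median gene, so its sign depends on the scaling. Skida1-deleted over MLL-ENL, the HSPC-like median of 0.02 was -0.0994 under stricter filters and -0.0013 with granulocyte progenitor-like cells joined. The erythroid-like median of 0.13 was 0.11 under stricter filters, 0.12 without doublet removal, 0.12 at resolution 1.5, 0.11 without clusters under 5000 median UMIs (added after seeing the data), 0.18 with equal weights, 0.16 with thinning, 0.14 when scaled to other genes, 0.19 with TMM, 0.17 when centred and 0.16 with Hspa1a and Hspa1b summed. The cause of each was not tested. Alternatives that left under 100 cells, such as erythroid-like cells called G1, were not run. Of 1630 values of single members under alternatives, 1101 stayed within their counting interval, 529 moved, and none past 1.5-fold in the report changed sign. Ratios closer to 0 did change sign, such as those of MLL-ENL over Control in erythroid-like cells for Hspa8 (-0.09 to 0.12) and Hspa5 (-0.12 to 0.13) and that of Skida1-deleted over MLL-ENL in granulocyte progenitor-like cells for Hsp90aa1 (-0.16 to 0.11).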

Other observations

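Classes with too few cells to compare also gave values. In megakaryocyte-like cells Hspa5 had 212 CPM in Skida1-deleted (920 cells), 179 in MLL-ENL (634 cells) and 456 in the 90 Control cells (interval 425 to 488). In B-lineage-like cells the 10 members summed to 5779 CPM in Skida1-deleted (100 cells), 5680 in MLL-ENL (93 cells) and 6565 in Control (45 cells), the lowest sum of the classes described here in each library. In erythroid-like cells they summed to 12874, 11815 and 12812 CPM. The few UMIs of Hspa1a and Hspa1b were uneven over cells in 1 library: of the 30 in Skida1-deleted erythroid-like cells, 1 cell held 11, while no MLL-ENL erythroid-like cell held more than 2 of its library's 11 and no Control cell more than 1 of 9.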
